A study of Mus musculus with 3 samples.

Results

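The 8 genes of the suppressor of cytokine signalling (SOCS) family, Socs1 to Socs7 and Cish, were examined in polyadenylated RNA of mouse bone-marrow-derived macrophages. They were taken by symbol from the 55536 mouse genes of the deposited tables, and all 8 were matched to 1 gene each by gene identifier. The macrophages, of strain C57BL/6J, had been exposed for 180 min to 100 ng/mL of a stimulus that 1 label field calls lipid A, the lipid anchor of bacterial lipopolysaccharide, and other fields call lipoprotein A. The 3 libraries, biological replicates 1, 2 and 3, form a single group with a shared donor identifier, and neither the sex nor the age of the animals was recorded. No unstimulated group was analysed here, so no value below is a response to the stimulus. Levels were compared between genes within libraries, and replicates were compared with each other. Since no label ties the replicates to separate animals, the spread between them may be technical.

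SOCS proteins are inhibitors of cytokine receptors that signal through Janus kinases (JAK) and the STAT transcription factors. Each carries an SH2 domain, which binds phosphorylated tyrosines on receptors or kinases, and a C-terminal SOCS box, which recruits elongins and a cullin ubiquitin ligase. SOCS1 and SOCS3 also hold a short region that blocks the kinase itself. Several members are transcribed by the STAT factors they restrain, which makes them feedback inhibitors, and in macrophages SOCS1 and SOCS3 are known as brakes on interferon and interleukin 6 signalling.

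The libraries held between 24450338 and 60595742 expected counts of mouse genes. A ribosomal RNA gene, CT010467.1, took 8.40% of the counts of replicate 3 and 1.89% of those of replicate 2, which lowers the share left to other genes there. The unit TPM, a length-scaled share of all transcripts, was used for levels, and counts relative to library size, scaled by the trimmed mean of M values (TMM-scaled CPM), for differences between replicates. All 10 macrophage markers examined were detected, which here means a level of at least 1 TPM in each of the 3 replicates. The highest were Lyz2, the lysozyme gene, with 23351, 13755 and 17085 TPM in replicates 1, 2 and 3, and Cd68, a lysosomal glycoprotein gene.

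All 8 SOCS family genes were detected, against 42.6% of all protein-coding genes. Socs3 was by far the most abundant, Socs1 came next, Cish, Socs7, Socs6 and Socs4 lay between 9.93 and 33.8 TPM in every replicate, and Socs5 and Socs2 were lowest at 2.57 to 3.77 TPM. The 5 members from Socs3 to Socs6 stood above the median detected gene (14.6, 15.2 and 14.1 TPM in replicates 1, 2 and 3) in every replicate. The family summed to 756, 640 and 657 TPM, of which Socs3 made up 74.1%, 77.9% and 75.8% (75.9% ± 1.87, SD, n = 3). The other 7 genes together therefore made up the smaller part in all 3 libraries.

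**Figure D1:**
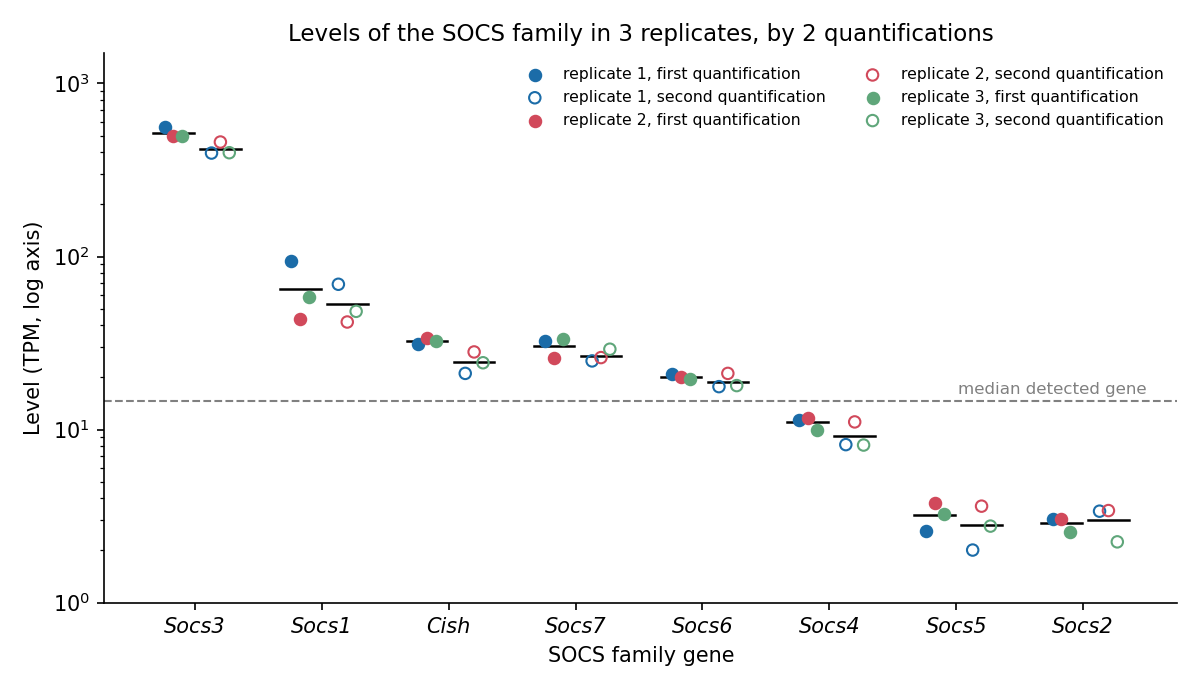
Level of each SOCS family gene in TPM on a log axis, in order of the mean. Filled points are the 3 replicates by the gene quantification from the alignment, open points the same replicates by the second quantification, short black lines their means, and the dashed line the median detected gene averaged over replicates. Socs3, with a mean of 519 TPM in the first quantification, sits apart from the others, Cish and Socs7 overlap, and so do Socs5 and Socs2.

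Socs3, whose product binds the interleukin 6 receptor chain gp130 and inhibits JAK kinases (ENSMUSG00000053113.3, chromosome 11, 117966079 to 117970047, minus strand, mm10), had 561, 498 and 498 TPM in replicates 1, 2 and 3 (519 ± 36.2, SD, n = 3). These levels fell at the 97.2, 97.1 and 97.1 percentile of the 10026 detected genes, so its rank was nearly the same in each library. The second quantification gave Socs3 396, 459 and 398 TPM, with replicate 2 and not replicate 1 the highest. Socs1, whose product acts on interferon receptors and their kinases (ENSMUSG00000038037.5, chromosome 16, 10782240 to 10785536, minus strand), had 94.1, 43.3 and 58.1 TPM (65.2 ± 26.1). Replicate 1 was high and replicate 2 low, and the percentile of Socs1 moved accordingly between 73.7 and 86.0. The ratio of Socs3 to Socs1 within a library was 2.57, 3.52 and 3.10 on the log2 scale, so Socs3 was the higher by a wide margin in each of them.

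Cish, an inhibitor of STAT5 signalling downstream of growth and cytokine receptors (ENSMUSG00000032578.7, chromosome 9, 107296026 to 107302784, plus strand), had 31.3, 33.8 and 32.6 TPM (32.5 ± 1.24). Socs2, which restrains growth hormone signalling (ENSMUSG00000020027.18, chromosome 10, 95385362 to 95417180, minus strand), had 3.04, 3.06 and 2.57 TPM (2.89 ± 0.277). The replicates of these 2 genes lay far apart from each other, with Cish 3.45 ± 0.15 (log2) above Socs2, or 10.9-fold. Both are textbook targets of STAT5, and only Cish stood above the median detected gene.

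The members that are not classical cytokine-induced inhibitors spanned a range of their own. Socs7, which binds signalling adaptors and has the longest coding sequence of the family (ENSMUSG00000038485.5, chromosome 11, 97362551 to 97398542, plus strand), had 32.3, 25.9 and 33.3 TPM (30.5 ± 4.04). Socs6, linked to receptor tyrosine kinases such as KIT (ENSMUSG00000056153.15, chromosome 18, 88665224 to 88927481, minus strand), had 20.9, 20.2 and 19.7 TPM (20.2 ± 0.592). Socs4, a relative of Socs5 (ENSMUSG00000048379.9, chromosome 14, 47276931 to 47296102, plus strand), had 11.4, 11.7 and 9.93 TPM (11.0 ± 0.951). The 3 genes kept this order in every library. Socs5, which is linked to the epidermal growth factor and interleukin 4 receptors (ENSMUSG00000037104.9, chromosome 17, 87107679 to 87137839, plus strand), had 2.60, 3.77 and 3.23 TPM (3.20 ± 0.586), below all of them.

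Of the 28 pairs of members, 26 were separated, meaning that all 3 replicates lay on the same side and the mean log2 ratio exceeded its SD, and in 22 the mean ratio was 2-fold or more. Cish and Socs7 did not differ beyond their spread, with a log2 ratio of 0.10 ± 0.24 and Socs7 the higher in replicates 1 and 3. Neither did Socs5 and Socs2, at 0.13 ± 0.30. The next closest neighbours were Socs7 over Socs6 at 0.58 ± 0.20, Socs6 over Socs4 at 0.88 ± 0.10, Socs1 over Cish at 0.93 ± 0.62 and Socs4 over Socs5 at 1.76 ± 0.28. The gap of Socs1 over Cish was 0.36 in replicate 2 and 1.59 in replicate 1, the widest spread among these neighbours. The exact permutation test used here flips the sign of each replicate, is two-sided and cannot go below p = 0.25 with 3 replicates, which is 0.269 after Benjamini-Hochberg adjustment over the 28 pairs, so no pair could pass a threshold of 0.05.

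Between replicates the members differed little, with Socs1 as the exception. As TMM-scaled CPM, Socs1 had 159, 68.7 and 99.5 in replicates 1, 2 and 3, from 3829, 2520 and 5769 counts. Its highest replicate was 2.31-fold its lowest, with replicate 3 between them. It was the only member 2-fold or more apart, 1 of 8, against 17.9% of the 12572 genes with a mean of 10 or more counts. Without replicate 1 or without replicate 2 no member was, since the Socs1 difference on the log2 scale dropped from 1.21 to 0.54 and 0.67. The share of tested genes that far apart was then 10.3% and 7.83%. The 2.31-fold range put Socs1 at the 87.5 percentile of the tested genes. For Socs1, edgeR's tagwise biological coefficient of variation was 27.2%. The common value over all genes was 25.9%, and the trended value for genes of its abundance was 20.0%.

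Cish was at the other end. Its TMM-scaled CPM was 58.5, 53.5 and 56.2, a range of 0.13 (log2) that was narrower than that of all but 4.86% of the tested genes. For Socs3 the values were 852, 714 and 768, a range of 0.25. Socs7 had 131, 106 and 142, a range of 0.42, with replicate 2 low on this scale as it was for Socs1, Socs3 and Cish. The ranges of Socs6, Socs4, Socs5 and Socs2 were 0.20, 0.16, 0.34 and 0.22. Over the 8 members the median range was 0.24, against 0.50 over all tested genes, and 7 of 8 lay below that. Such ranges also depend on how many counts a gene has, and the members were not set against genes of equal count.

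A chi-square test against equal rates, which asks whether libraries differ beyond counting error and says nothing about conditions, called 6 of 8 members at a Benjamini-Hochberg adjusted p under 0.05. The same test called 76.1% of all tested genes, so the share among the members is near the background. Socs1, Socs3 and Socs7 had adjusted p-values of 5.1e-251, 6.6e-78 and 3.3e-48 by this chi-square test across all genes. Socs6 and Socs4 had 0.00476 and 0.00119. Socs5 at 0.0498 and Cish at 0.0505 lay on either side of the threshold, and each was called in 3 of the 7 alternative settings. Socs2, the gene with the fewest counts (91, 141 and 191), had 0.352 and was called in none of them. Socs6 was not called without replicate 1 (0.686), and Socs4 was not called without replicate 3 (0.689).

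By TMM-scaled CPM, 4 members were highest in replicate 1, 3 in replicate 2 and 1 in replicate 3, against 31.6%, 37.7% and 30.7% of the tested genes. By TPM the counts were 3, 4 and 1. Between the scales, 3 members changed their highest replicate. In replicate 1, Cish was highest by TMM-scaled CPM and lowest by TPM, and Socs6 was lowest by TMM-scaled CPM (34.6, 39.9 and 38.9) and highest by TPM. The highest replicate of Socs4 was replicate 1 by TMM-scaled CPM and replicate 2 by TPM. For these 3 genes the order of the replicates depends on the scale.

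**Figure D2:**
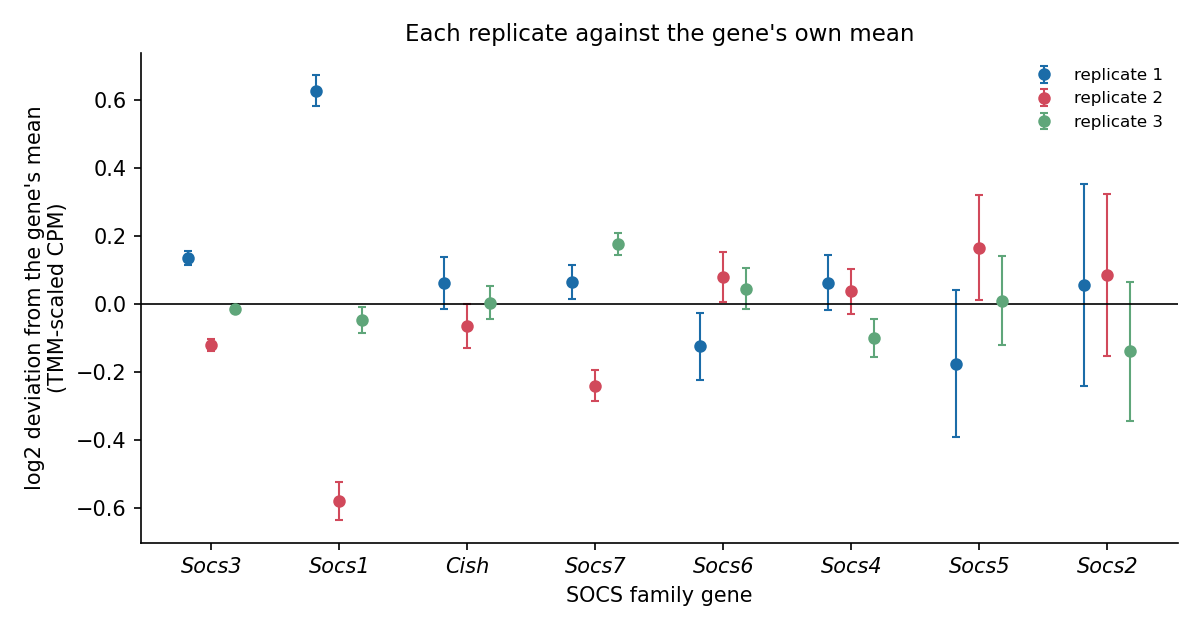
Log2 deviation of each replicate from the mean of that gene, from TMM-scaled CPM, for the 8 SOCS family genes. Error bars are 95% Poisson limits of the counts and cover counting error only. Socs1 spreads over 1.21 between replicates 1 and 2, while the other 7 genes stay within 0.42.

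Markers of other cell types also moved between the replicates, and are given here because replicate 2 was the lowest for Socs1, Socs3, Cish and Socs7 by TMM-scaled CPM. By TPM of the first quantification this held for Socs1 and Socs7, while Cish was highest in replicate 2 and Socs3 had 498 TPM in both replicates 2 and 3. By TPM of the second, among these genes it held for Socs1 only, and Socs7 had 24.9, 26.1 and 29.1 TPM. Of 12 neutrophil markers, 8 had enough counts to be tested and 7 of these were highest in replicate 2, against 37.7% of all tested genes. The exception was Csf3r, with 67.8, 48.7 and 46.6 TPM in replicates 1, 2 and 3. All 12 markers, Csf3r included, summed to 161, 778 and 102 TPM in replicates 1, 2 and 3. The calgranulin genes S100a9 and S100a8 led, with 47.1, 432 and 26.0 TPM and with 31.0, 196 and 18.7 TPM. Ngp, Camp, Ltf and Mpo, which encode granule proteins, were also 4-fold or more apart between replicates, with 60.6, 5.58, 17.1 and 1.48 TPM in replicate 2 and 3.94 TPM or less in the others. Ly6g, a surface marker of mature neutrophils, was listed at 0 in every library.

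Fibroblast markers were low throughout, none of 6 being detected, and all 5 tested were highest in replicate 2, with summed levels of 0.17, 7.10 and 0.48 TPM. Decorin (Dcn) at 0, 5.12 and 0.02 TPM and Col1a2 were the highest of them, Lum the lowest, and Col1a1, Col1a2, Col3a1, Dcn and Pdgfra were all 4-fold or more apart. The 6 dendritic cell markers summed to 3.26, 6.43 and 3.12 TPM and all were highest in replicate 2, with Ccr7 and Siglech the highest, Flt3 the lowest and Clec9a 4-fold or more apart. Of the T and natural killer cell markers only Lck, a kinase gene, was detected (34.7, 24.6 and 46.5 TPM). Cd3g, the next highest, stood at 0.29 TPM or less, while Cd3e, Cd3d and Trac were at 0 in replicates 1 and 3 and Prf1 in all. B cell markers summed to 13.4, 9.04 and 9.34 TPM, with Ighm and Cd79b the highest and Ms4a1 the lowest. Macrophage markers summed to 29699, 19674 and 24136 TPM, lowest in replicate 2. The part of these differences in the Socs1 values was not tested, and in bulk RNA fewer cells of a type and less RNA per cell cannot be told apart. The Socs1 difference between replicates 1 and 3 alone was 0.67 (log2).

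The transcripts behind the levels were simple for most members. Socs3-201, with the whole coding sequence of 675 bases, made up 99.6%, 99.7% and 99.7% of Socs3 TPM. Socs1-201 made up 93.9%, 95.4% and 95.2% of Socs1, and the rest went to Socs1-202, which has the same 636 coding bases, so the whole of Socs1 TPM carried the full coding sequence. Socs7-201 held 93.0% ± 3.01 (SD, n = 3), Socs5-201 85.1% ± 6.10, Socs2-201 88.6% ± 3.08 and Socs4-201 all of its gene's TPM. Socs2 was less simple by the second quantification, which gave Socs2-201 64.3%, 54.7% and 85.2% in replicates 1, 2 and 3. There Socs2-214, with the same 594 coding bases, took 33.1% in replicate 2. These shares are the quantifier's estimates from reads that several transcripts share.

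Cish and Socs6 had the lowest leading shares in the first quantification. Cish-201, the only Cish transcript with the full 771 coding bases, made up 68.9%, 64.4% and 61.6% of Cish TPM. Cish-204, which lacks the middle exon of Cish-201 (chromosome 9, 107299924 to 107300144, mm10) and has 186 coding bases, took 18.2%, 18.2% and 26.5%. The second quantification gave Cish-204 only 2.08%, 3.79% and 3.32%, and Cish-201 82.5% ± 3.19. The level of the short form therefore rests on the quantification used, while Cish-201 was the leading transcript in both. Cish-202, a transcript annotated as noncoding, had 12.9%, 8.86% and 6.54% in the first quantification and 18.5%, 14.1% and 10.9% in the second.

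In the first quantification no Socs6 transcript reached the share of the other members' leading transcripts. Socs6-203 led with 40.5%, 34.7% and 45.4%, followed by Socs6-202 with 27.0% ± 7.41 and Socs6-201 with 18.3% ± 5.41. These 3 each hold 1599 coding bases and differ in the ends of their exons. Socs6-203 also has an internal exon (chromosome 18, 88886992 to 88887065, mm10) that Socs6-201 and Socs6-202 lack. Together the 3 held 74.4%, 89.0% and 93.2% of Socs6 TPM. The lower share in replicate 1 went with Socs6-208, a 453-base transcript with 195 coding bases, which took 20.4% there and 2.48% and 5.74% in replicates 2 and 3. The second quantification placed Socs6-208 at 28.5%, 9.57% and 11.8%, again highest in replicate 1. Replicate 1 held 836 Socs6 counts, the fewest of the 3 libraries.

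**Figure D3:**
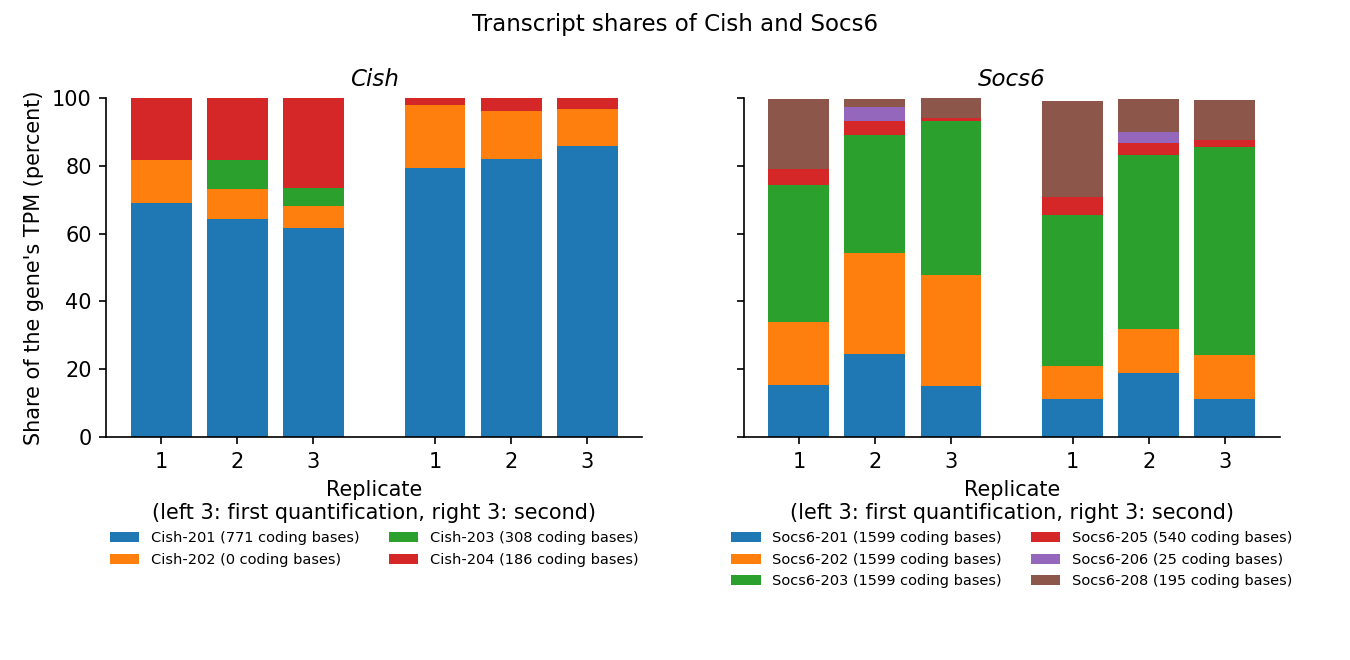
Share of each transcript in the TPM of Cish (left panel) and Socs6 (right panel), in percent, for the 3 replicates by the first and by the second quantification. Transcripts with a mean share under 1% in both are not drawn, so bars can end just under 100. The Cish-204 share is near 20% in the first and near 3% in the second quantification, and Socs6-208 is highest in replicate 1 in both.

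Sequences before the RefSeq start, or for Cish just after it, are shown for members with a known STAT or interferon feedback, to place the motifs those factors bind. RefSeq windows (GRCm38.p6, 250 bases before to 50 after the RefSeq start) were found for 4 of the 8 members, Cish, Socs1, Socs3 and Socs4. They were searched on both strands for TTCNNNGAA (the STAT motif, GAS), GAAANNGAA (the core of the interferon-stimulated response element, ISRE) and GGGNNTTCC (an NF-kB motif). In the 250 bases before the start these occur in 7.02%, 7.13% and 4.98% of the 32851 RefSeq promoters. Capitals mark the matches in the 5′ to 3′ sequences of the gene's own strand below, which are a description and not evidence of binding in these cells.
Socs1, chr16:10785537-10785786, minus strand: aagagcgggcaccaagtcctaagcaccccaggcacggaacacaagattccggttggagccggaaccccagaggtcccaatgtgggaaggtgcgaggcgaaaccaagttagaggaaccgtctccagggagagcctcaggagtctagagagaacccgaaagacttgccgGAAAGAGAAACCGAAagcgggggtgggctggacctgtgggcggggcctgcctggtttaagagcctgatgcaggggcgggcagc
Socs3, chr11:117969367-117969616, minus strand: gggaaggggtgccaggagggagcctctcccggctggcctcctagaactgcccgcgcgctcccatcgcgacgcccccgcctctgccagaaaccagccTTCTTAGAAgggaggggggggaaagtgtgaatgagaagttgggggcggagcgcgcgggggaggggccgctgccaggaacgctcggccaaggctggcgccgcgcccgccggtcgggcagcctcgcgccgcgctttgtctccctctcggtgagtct
Cish, chr9:107296659-107296678, plus strand: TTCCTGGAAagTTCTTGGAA

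The Socs1 bases hold 2 ISRE core matches that overlap, GAAAGAGAA beginning 83 bases before the start and GAAACCGAA beginning 77 bases before it. The Socs3 bases hold a single GAS match, TTCTTAGAA, beginning 154 bases before the RefSeq start. That start lies upstream of the first base of Socs3-201 at 117969186, which carries nearly all Socs3 TPM, and the window runs over an exon of the noncoding Socs3-203. The first quantification lists Socs3-203 at 0 TPM, and the second gives it 1.28%, 0.498% and 0.279% of Socs3 TPM. The bases directly before Socs3-201 were not used here. Cish had no match before the RefSeq start but a tandem pair of GAS matches, TTCCTGGAA and TTCTTGGAA, in the first 20 bases after it, a stretch that lies inside the first exon of Cish-201. With the bases after the start included, a search chosen after seeing the data, 8.30% of all promoters hold a GAS match. The Socs4 window had none of the 3 motifs and runs over exons of the neighbouring gene Wdhd1. No NF-kB match was found in the 4 windows, which says only that these letters are not in them.

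Genes that start next to a member ranged from 0 to over 100 TPM. Wdhd1, a DNA replication gene read in the opposite direction from a start 74 bases from that of Socs4, had 20.0, 13.4 and 15.1 TPM. The noncoding gene 5730420D15Rik, which starts 195 bases from Socs2, was listed at 0. Tnp2, a sperm nuclear protein gene next to Socs1, was also at 0, and Gpr179, nearest to Socs7, was at 0.01 TPM or less. Pgs1, a phospholipid synthesis gene 16245 bases from the Socs3 start, had 109, 68.0 and 67.6 TPM, and the pseudogene Gm5499 near Socs5 at most 0.32 TPM. Cish and Socs6 also overlap other genes. Gm17040, a pseudogene over the Cish start, had 0.10, 0.07 and 0.13 TPM, the antisense gene Gm17041 was at 0, and the pseudogenes AC118614.1, AC122398.2, AC122398.3 and AC122398.1 in or beside Socs6 were at 0. Whether the libraries kept strand was not given, and without it reads from the overlapping stretches could not be told apart.

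The machinery that SOCS boxes recruit was present throughout. All 6 ligase partner genes were detected, with a median of 63.6, 63.2 and 53.1 TPM in replicates 1, 2 and 3. Elob and Eloc, the genes of the elongins that the SOCS box recruits, were highest at 227 ± 19.3 and 126 ± 29.3 TPM (SD, n = 3). Cul5, the cullin that completes the SOCS ligase, was lowest with 7.84, 10.6 and 5.92 TPM, below Socs4 and far below Socs3. All 6 were called by the chi-square test and none was 2-fold or more apart. Of all 12572 tested genes, 76.1% were called and 17.9% were 2-fold or more apart. These shares are the background for the lists below as well.

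The kinases and transcription factors that SOCS proteins act on were also all detected, 11 of 11, with a median of 140, 102 and 133 TPM. Stat2, a factor of type I interferon signalling, had 258, 221 and 245 TPM. Stat4, best known from lymphocytes, was lowest with 3.01, 2.46 and 4.19 TPM. Socs3 stood above every STAT and Janus kinase gene in every replicate, and Socs1 below Stat2. The 11 were all called by the chi-square test, 7 highest in replicate 1 and 4 in replicate 3, and none was 2-fold or more apart.

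Among 33 genes for receptors and adaptors that SOCS proteins restrain, 24 were detected. Csf1r, the receptor of macrophage colony-stimulating factor, had 769, 461 and 646 TPM and Il4ra, a chain of the interleukin 4 receptor, 465, 147 and 301 TPM. Both were lowest in replicate 2, the order that Socs1 showed. The leptin receptor Lepr and the prolactin receptor Prlr, classical targets of Socs3 and Cish in other tissues, were listed at 0 in every library. Kit was the 1 receptor gene 4-fold or more apart, with 0.99, 0.42 and 1.63 TPM. Of the 29 receptors tested, 21 were called, 15 of them highest in replicate 1, 2 in replicate 2 and 4 in replicate 3, and 5 were 2-fold or more apart.

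Among the 7 pathway lists, the ligands of these receptors had the widest median range between replicates, 1.22 (log2). Of 18, 9 were detected, and the median was 1.72, 4.89 and 0.84 TPM in replicates 1, 2 and 3. Il15, a lymphocyte growth factor gene, had 652, 708 and 480 TPM and Il27, whose product forms interleukin 27, 477, 531 and 314 TPM. Il3 was lowest, listed at 0. Of 12 tested, 11 were called, against 76.1% of all tested genes, and 7 were 2-fold or more apart, against 17.9%. Of the 12, 9 were highest in replicate 2, against 37.7% of all tested genes. Among the 11 called, 8 were highest in replicate 2 and 3 in replicate 1. Csf2, Lif and Il12a were 4-fold or more apart, from only 51, 73 and 209 counts over the 3 libraries. Csf2, a granulocyte and macrophage growth factor gene, had 0.34, 3.70 and 0.20 TPM. Replicate 2, in which most called ligands were highest, was the replicate with the lowest Socs1, and also the most frequent highest replicate over all tested genes. A relation across 3 libraries was not tested.

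Other negative regulators of JAK and STAT signalling were detected in 11 of 11 cases, with a median of 27.2, 30.6 and 35.0 TPM. Usp18, which restrains the type I interferon receptor, had 311, 273 and 284 TPM and Ptprc, the CD45 phosphatase gene, 230, 229 and 205 TPM. Pias3, an inhibitor of STAT3, was lowest with 9.49, 8.23 and 7.24 TPM. Socs3 stood above all 11 of these genes in every replicate. All 11 were called by the chi-square test and 1 was 2-fold or more apart.

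Of 14 known STAT target genes besides the SOCS family, 13 were detected, with a median of 188, 158 and 182 TPM. Cxcl10, an interferon-induced chemokine gene, had 11864, 9876 and 8809 TPM, and Irf1, an interferon regulatory factor gene, 1304, 1174 and 1068 TPM. Pim2, a kinase gene, was the lowest and the only one not detected, with 1.53, 1.63 and 0.76 TPM. All 14 were called, 10 of them highest in replicate 1 by TMM-scaled CPM, and 2 were 2-fold or more apart. Lists and members differ in length and count, and nothing particular to the SOCS family is read from these shares.

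**Figure D4:**
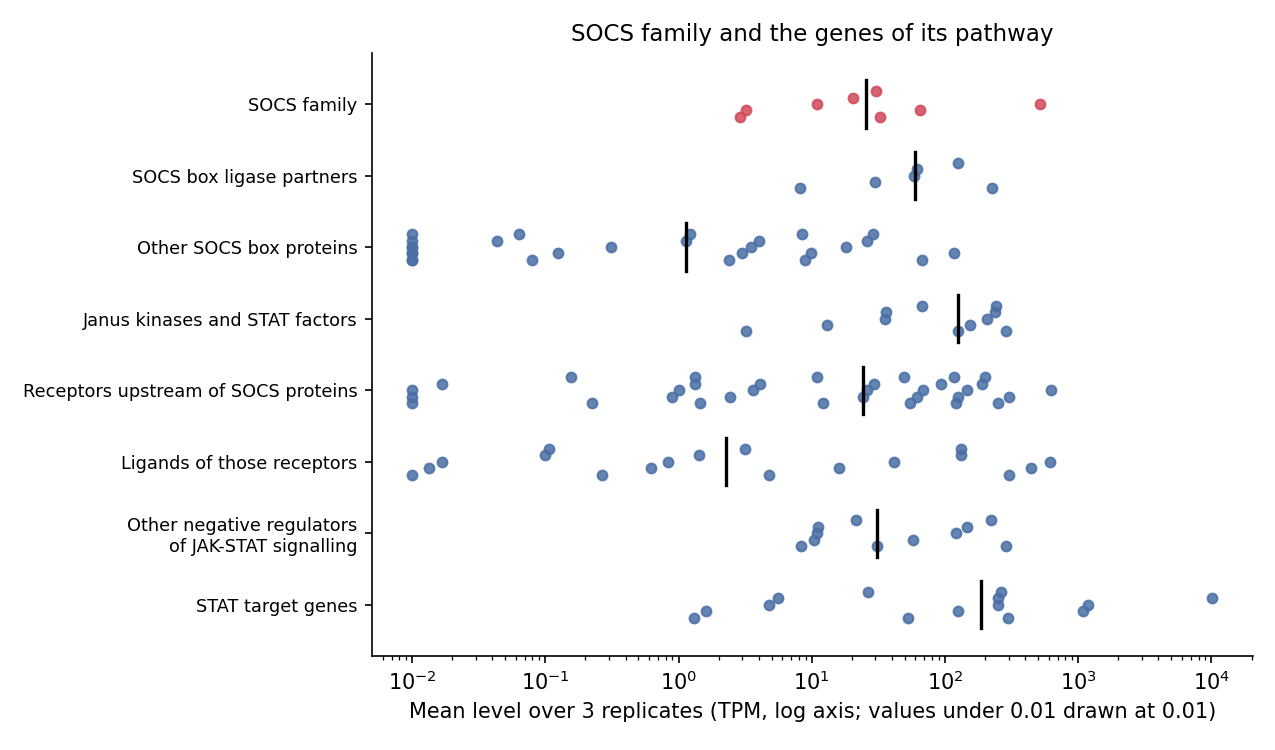
Mean level over 3 replicates, in TPM on a log axis, of the 8 SOCS family genes (red) and of the genes of 7 pathway lists (blue). Each point is a gene, vertical black lines are medians, and means under 0.01 TPM are drawn at 0.01. The SOCS family runs from 2.89 to 519 TPM, while ligands and other SOCS box proteins reach down to 0.

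Profiles over the 3 libraries were compared with 66 pathway genes at a mean of 10 TPM or more, by the Euclidean distance between centred log2(TPM + 0.1) values. With 3 points that share their libraries, such likeness is a description. Closest to Socs3 was Usp18 at a distance of 0.0404. The interferon gamma receptor gene Ifngr2 followed at 0.0505 and the interleukin 10 receptor gene Il10ra at 0.0508. Socs3 itself varied little, and these distances rest on the first quantification. The second gave Socs3 396, 459 and 398 TPM in replicates 1, 2 and 3, a different order. Closest to Cish were Il10 at 0.0626, Wsb2 at 0.112 and Ifnar2 at 0.112, all of them genes that hardly varied. Socs1 had no gene as near. Its closest were Junb at 0.289 with 328, 200 and 228 TPM, the phosphatase gene Ptpn6 at 0.321 with 154, 96.9 and 113 TPM, and Csf1r at 0.340, each highest in replicate 1 and lowest in replicate 2.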

How the data were processed

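Polyadenylated RNA of 3 libraries of a single group was used. Per the deposited text files the reads were mapped to mm10 with GENCODE M21, and per the file headers the authors deposited expected counts, TPM and FPKM per gene and, per transcript, the same and the percent share of each gene. A second deposited quantification, made from the reads and an index, holds estimated counts and TPM per transcript and was summed per gene. Not given in the sources used here are the aligner, the quantifiers, their versions and strandedness. The deposited FPKM entered 1 alternative, the count of detected members.

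The members and gene lists were chosen with earlier results of these data known. Expected counts were rounded, and entries that are not mouse genes (0.117%, 0.0993% and 0.082% of counts) were left out. Library sizes were scaled with edgeR 4.0.16 (TMM, with DESeq2 1.42.0 size factors as an alternative) in R 4.3.3. The 12572 genes with a mean of 10 or more counts entered a chi-square test with Benjamini-Hochberg adjustment over all of them (scipy 1.17.1). The test was tried on simulated data that, apart from planted fold changes, varied by counting error only. That trial does not cover wider variation between libraries. Ratios between members used log2(TPM + 0.1), which understates ratios of low genes. A count of 0 allows up to 3 counts, or 1.23e-05%, 8.66e-06% and 4.95e-06% of the library in replicates 1, 2 and 3. These limits cover counting error only.

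Named genes were all members, the 2 highest and the lowest of each list by mean TPM, list genes 4-fold or more apart, genes overlapping or nearest to a member, and the 3 genes most like Socs3, Socs1 and Cish. Any other gene named was chosen after its values were seen, and a few genes that the rule names are not reported here. A comparison of protein sequences was not made here. Alternatives were other thresholds, pseudocounts, scalings, no filter, the second quantification and each replicate left out.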

Additional observations from a re-analysis of the deposited data

How the results depend on the processing

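All 8 members stayed detected at 0.5 TPM, by FPKM, by the second quantification and without any 1 replicate, and 6 did at 5 TPM. By the second quantification the mean levels of Socs3, Cish, Socs6 and Socs4 moved by more than their SD, to 418, 24.5, 18.9 and 9.13 TPM. It also turned Cish over Socs7 to -0.13 and Socs5 over Socs2 to -0.12 (log2), the 2 pairs that were not separated, and Cish over Socs7 lay between -0.039 and 0.18 with 1 replicate left out. Without length scaling, raw expected counts turned Cish over Socs7 to -1.17 and Socs6 over Socs4 to -0.34, since longer transcripts collect more counts. Separated pairs numbered 26 or 27 in every alternative. The chi-square test called 5 to 7 members under the other scalings, without a filter and by the second quantification. Of all tested genes it called 76.7% with total counts, 76.2% with DESeq2 size factors and 74.7% by the second quantification. With 1 replicate left out it called 4 to 6 members. Of all tested genes it then called 64.1%, 50.4% and 58.6% without replicate 1, 2 and 3 in turn. With no filter 20566 genes were tested and 49.4% called, and 46.3% were 2-fold or more apart. Members 2-fold or more apart numbered 0 to 1 with 1 replicate left out. Of all tested genes, 10.3%, 7.83% and 10.9% were that far apart without replicate 1, 2 and 3 in turn. The range between replicates became 0.19 for Socs3, 1.11 for Socs1, 0.27 for Socs7 and 0.28 for Socs4 with total counts, and 0.17 for Socs3 and 1.12 for Socs1 by deposited TPM. With 1 replicate left out it ran from 0.12 to 0.26 for Socs3, 0.54 to 1.21 for Socs1, 0.11 to 0.43 for Socs7, 0.024 to 0.20 for Socs6 and 0.027 to 0.16 for Socs4. Leading transcript shares by the second quantification were 98.6% for Socs3-201, 88.6% for Socs1-201, 82.5% for Cish-201, 88.5% for Socs7-201, 52.4% for Socs6-203 and 68.1% for Socs2-201, and the cause of these shifts was not tested. No paired analysis was possible because the 3 libraries form 1 group. With 91 to 191 counts, Socs2 allows only coarse statements on its spread.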

Other observations

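Beyond the SOCS family, a list of 27 other genes for proteins with a SOCS box was examined, and 13 of them were detected. Wsb2 and Wsb1, which pair the box with WD repeats, were the highest, with 112, 114 and 122 TPM and with 76.1, 79.4 and 45.1 TPM in replicates 1, 2 and 3. Both stood above Cish in every library. Of the Spsb genes, whose products target the inducible nitric oxide synthase among others, Spsb1 had 27.6, 27.0 and 31.8 TPM. Asb8 at 26.0 ± 3.85 TPM and Asb6 at 18.1 ± 2.12 TPM (SD, n = 3) led the ankyrin repeat members. A further 8 genes, among them Asb9, Asb11 and Rab40b, were listed at 0 in every library. The median over all 27 was 0.87, 1.08 and 1.06 TPM. Of 15 tested, 12 were called by the chi-square test, 6 of these highest in replicate 3, and 4 were 2-fold or more apart between replicates. Over all tested genes, 76.1% were called and 17.9% were 2-fold or more apart.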
